A study of Equus caballus with 6 samples.

Results

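The genes described here mark spermatogonia, the dividing germ cells at the base of the seminiferous tubule, or encode RNA-binding proteins of the germline. The set was a list of 32 gene symbols, and a probe belonged to it if the array's gene table gave that probe exactly 1 symbol and the symbol was on the list. This found 35 probes for 27 of the 32 genes, among 23472 probes with 1 symbol and 53423 gene probes in all. UTF1, STRA8, RET and DND1 were listed for no probe, and KHDRBS1 was listed only for a probe shared with PTMA, which was left out.

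The RNA came from minced testicular parenchyma of 6 adult stallions, all held at a clinic for 10 days beforehand. The dexamethasone group, 3 stallions, had received 0.1 mg/kg of this synthetic glucocorticoid into a vein, and the control group, also 3, an equal volume of saline. The testes were collected 12 h later, and each stallion gave 1 one-colour CodeLink array with probes designed for human transcripts. The labels say no more of the animals than that they were adult.

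Stem spermatogonia either renew themselves or enter differentiation. The ligand GDNF, made by Sertoli cells, acts through GFRA1 and RET to favour renewal, whereas stem cell factor acts through KIT, and retinoic acid through STRA8, on cells leaving that state. Much of the later control lies with RNA-binding proteins such as DAZL, NANOS2 and CPEB1, which hold, release or degrade messages that were made earlier.

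A spot counted as above background if it carried no flag taken as low signal (L) or as an error. Signal strength, the spot mean over that spot's own noise level, was at least 1 in all such spots of the member probes. In their other spots it was under 1. Of the 35 member probes, 18 were above background on all 6 arrays (51.4%, against 39.3% of all probes with 1 symbol) and 12 on none (34.3%, against 38.7%). The remaining 5 were above it on 1 to 5 arrays. At least 3 arrays, the minimum for testing, were reached by 60.0% of the member probes and by 51.7% of all probes with 1 symbol. That left 21 probes of 19 genes for the comparison of the groups. These were human probes on horse RNA, and a dim probe does not show a silent gene.

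**Figure D1:**
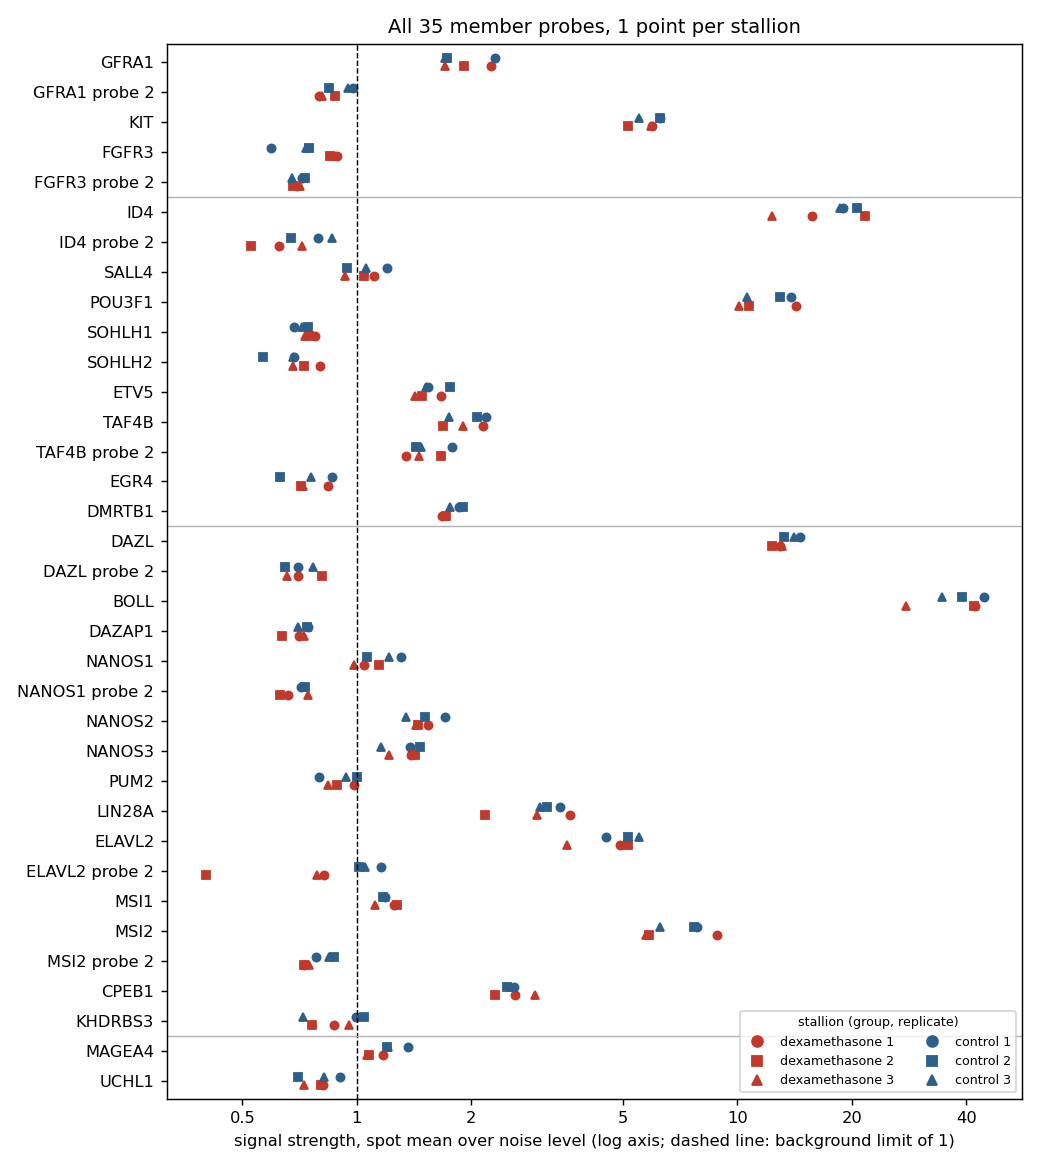
Signal strength (spot mean over noise level, no unit, log axis) of the 35 member probes, with 1 point per stallion, colour for group and shape for replicate. Points right of the dashed line at 1 are above background: BOLL lies between 27.7 and 44.4, while both FGFR3 probes lie between 0.59 and 0.89 in all 6 stallions.

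Several well-known spermatogonial genes gave no usable signal. UCHL1, a deubiquitinase used as a spermatogonial marker in many species, had signal strengths of 0.70 to 0.90 over the 6 stallions. The helix-loop-helix factors SOHLH1 and SOHLH2, which drive differentiation in mouse spermatogonia, stood at 0.68 to 0.77 and 0.56 to 0.80. EGR4, an early growth response factor, and DAZAP1, a partner of the DAZ proteins, were likewise above background on 0 arrays, as were both probes of the receptor FGFR3. PUM2, a Pumilio repressor that binds messages together with NANOS proteins, and KHDRBS3, a STAR-family splicing regulator, were each above background only in control replicate 2. These 8 genes were not tested, and none of them is given a direction.

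Of the 8 member genes with 2 probes, 4 had 1 probe above background on all 6 arrays and the other on none. These were GFRA1, ID4, DAZL and MSI2, and the same pattern held for 29.3% of the 3350 genes with 2 probes on this array. For DAZL the signal strengths were 12.3 to 14.6 at the first probe and 0.65 to 0.81 at the second. For ID4 they were 12.3 to 21.6 and 0.53 to 0.86. TAF4B was the 1 member gene whose probes were both above background in every stallion. The match of the human probes to horse sequence was not examined, so a level is compared between stallions only, within 1 probe.

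Between the groups, none of the 19 tested genes passed limma's adjusted test, which does not show that none of them changed. Limma's adjusted p, taken over all 24590 tested probes, was 0.999 for every member probe, and 0.00407% of all tested probes passed. At an unadjusted p under 0.05 there were 0 of the 19, against 3.87% of all tested genes. On the log2 scale 10 genes lay higher and 9 lower in the dexamethasone stallions, where 47.3% of all tested genes lay higher. This split depended on the scaling between arrays, with 2 genes higher under median scaling, where 22.8% of all tested probes were, and 6 with the authors' scaled values, where 33.7% were. The median difference of the 19 genes was 0.01, against -0.01 over all tested probes, and the single differences ran from -0.14 to 0.13. In bulk tissue, fewer cells of a type and less RNA per cell cannot be told apart.

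On the normalised scale the errors were small. All 19 genes had 95% intervals within 1.5-fold in either direction, as did 96.3% of all tested probes. The widest were those of ID4, from 0.738-fold to 1.22-fold, and BOLL, from 0.830-fold to 1.34-fold. The background correction adds an offset that compresses differences of dim probes, and with the authors' scaled values 16 of the 19 intervals stayed within 1.5-fold, as did 70.1% of those of all tested probes. The intervals therefore bound the normalised signal and need not bound the transcripts.

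**Figure D2:**
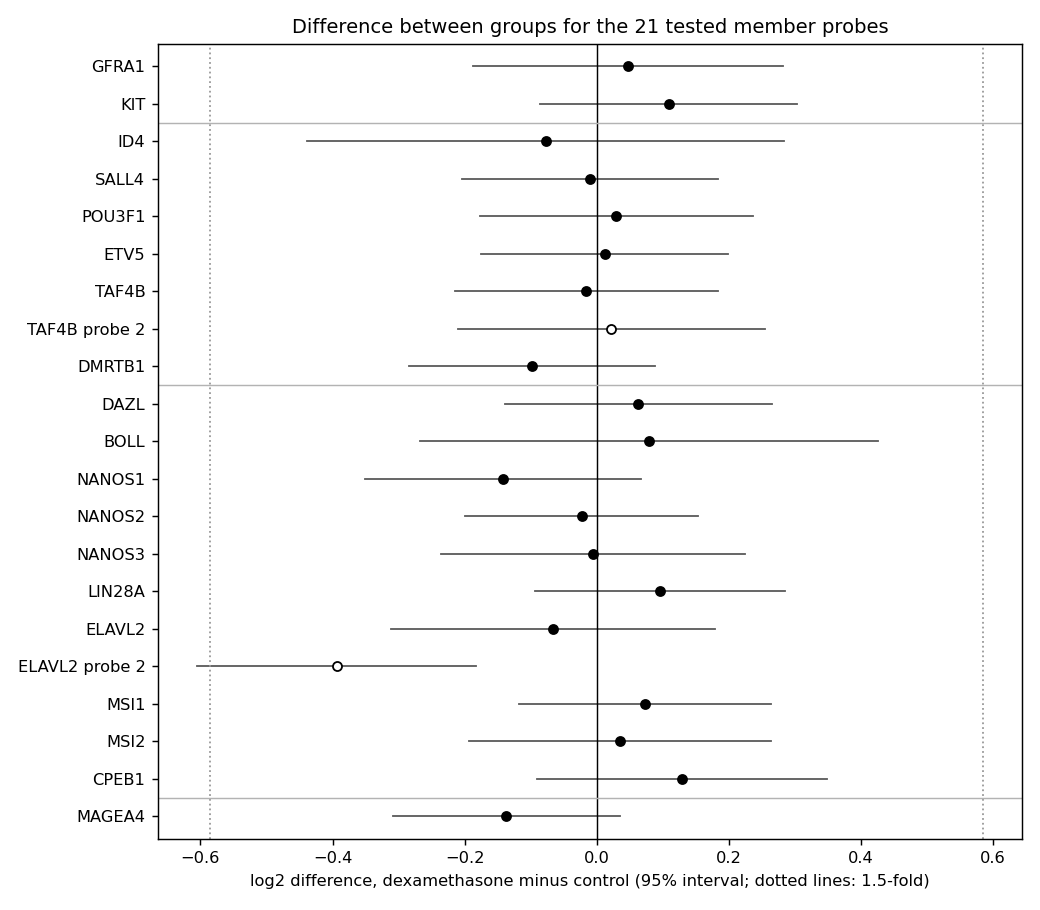
Log2 difference between dexamethasone and control stallions for the 21 tested member probes, with the 95% interval from limma as a bar. Filled points stand for the gene and open points are second probes, and the dotted lines mark 1.5-fold. Every interval crosses 0 except that of the second ELAVL2 probe, at -0.39. This dim probe was above background in controls only and entered the test through them, so its interval is no support for a change.

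Among the receptors, GFRA1, the GDNF-binding co-receptor of undifferentiated spermatogonia, read 7.50, 7.35 and 7.22 (log2 intensity) in dexamethasone replicates 1, 2 and 3. In control replicates 1, 2 and 3 it read 7.46, 7.22 and 7.24. The groups overlapped over nearly their whole range, with a difference of 0.05 ± 0.11 (SE). KIT, the stem cell factor receptor of differentiating spermatogonia, read 8.96, 8.84 and 8.95 after dexamethasone and 8.84, 8.87 and 8.71 in controls. Its 2 highest values belonged to treated stallions, but the third was within the control range, and the difference was 0.11 ± 0.09 (SE). Mast cells also carry KIT, and their markers CPA3 and HDC were above background on 0 arrays, while TPSAB1 and MS4A2 had no probe with 1 symbol. The part of mast cells in the KIT values was not tested.

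The transcription factors of stem and early spermatogonia included some of the clearest signals. ID4, an inhibitor of DNA binding that marks stem spermatogonia in mice, read 10.46, 10.88 and 10.20 in dexamethasone replicates 1 to 3 and 10.40, 10.71 and 10.67 in the controls. Both the highest and the lowest of the 6 values came from treated stallions, and its pooled SD of 0.27 was at or above that of 95.4% of tested probes. The difference of -0.08 ± 0.16 (SE) was 0.08 without dexamethasone replicate 3. POU3F1, a POU-domain factor that responds to GDNF in mouse cells, read 9.91, 9.82 and 9.92 against 9.83, 9.99 and 9.74, so that the treated values fell inside the control range. Its difference was 0.03 ± 0.09 (SE).

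ETV5, an ETS factor needed for stem cell renewal in mice, read 7.04, 7.07 and 7.01 against 6.93, 7.07 and 7.08. TAF4B, a germ-cell form of a TFIID subunit, read 7.36, 7.16 and 7.32 against 7.35, 7.30 and 7.23. Both genes had overlapping groups, with differences of 0.01 ± 0.08 and -0.02 ± 0.09 (SE). The second TAF4B probe, at 6.89, 7.26 and 6.99 against 7.04, 7.02 and 7.00, differed by 0.02 ± 0.10 (SE). The 2 probes therefore gave differences of opposite sign that were both smaller than their errors.

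DMRTB1, which in mice acts at the change from mitosis to meiosis, read 7.09, 7.17 and 7.23 after dexamethasone and 7.22, 7.25 and 7.32 in controls. The 2 highest values were those of controls, but dexamethasone replicate 3 lay above control replicate 1, and the difference was -0.10 ± 0.08 (SE). SALL4, a zinc finger factor of undifferentiated spermatogonia, was near background, in 2 of 3 stallions of each group above it. It read 6.53, 6.51 and 6.46 against 6.59, 6.39 and 6.54, a difference of -0.01 ± 0.09 (SE) with the treated values inside the control range.

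The DAZ family was read clearly. DAZL, which binds messages and promotes their translation from the spermatogonium into meiosis, gave 10.10, 10.13 and 10.17 in the dexamethasone stallions. The controls gave 9.96, 10.04 and 10.20, a wider range that held all 3 treated values, and the difference was 0.06 ± 0.09 (SE). BOLL, a relative that acts in meiotic cells, gave 11.89, 12.00 and 11.32 against 11.64, 11.72 and 11.62. Dexamethasone replicates 1 and 2 were above every control and replicate 3 below every control, so that the SD was 0.36 in the treated and 0.05 in the control group. The difference of 0.08 ± 0.16 (SE) became 0.28 without dexamethasone replicate 3, where limma's adjusted p was 0.986.

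BOLL and ID4 shared this order among the treated stallions, with dexamethasone replicate 2 highest and replicate 3 lowest of all 6. In dexamethasone replicates 1 to 3, the 4 tested spermatocyte markers had mean levels of 9.44, 9.50 and 9.61. In the controls they had 9.49, 9.58 and 9.70. The 7 spermatid markers had 8.50, 8.66 and 8.54 against 8.45, 8.56 and 8.48. The relation of either marker set to the order in BOLL and ID4 was not tested. Over the 19 members, dexamethasone replicate 3 held the lowest value for 5 genes and the highest for 1. Dexamethasone replicate 2 held the lowest for 2 and the highest for 5.

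**Figure D3:**
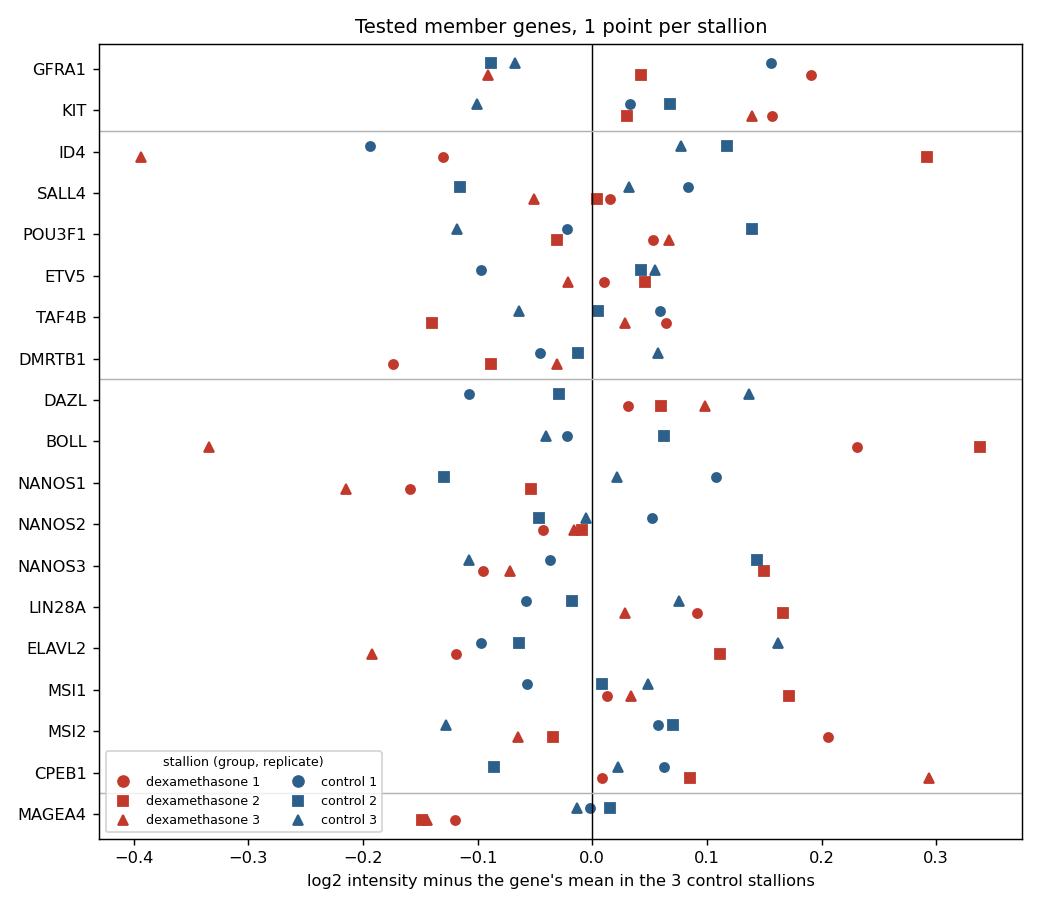
Log2 intensity of the 19 tested member genes in each stallion, given as the distance from the mean of that gene's 3 control stallions, with colour for group and shape for replicate. The treated and control points are mixed in 18 genes, and in MAGEA4 alone the 3 treated stallions lie below all controls. BOLL and ID4 show the widest spread, within the dexamethasone group.

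The 3 NANOS genes encode zinc finger partners of Pumilio that repress messages, and in mice NANOS2 keeps male germ cells from differentiating. NANOS2 read 6.91, 6.94 and 6.94 after dexamethasone and 7.01, 6.91 and 6.95 in controls, one of the narrowest spreads of any member, with a difference of -0.02 ± 0.08 (SE). NANOS3 read 6.78, 7.03 and 6.81 against 6.84, 7.02 and 6.77, and differed by -0.01 ± 0.10 (SE). In both genes the treated and control values interleaved. NANOS1 read 6.50, 6.60 and 6.44 against 6.77, 6.53 and 6.68, above background in 2 of 3 treated stallions and 3 of 3 controls. Its difference of -0.14 ± 0.09 (SE) was the lowest of the 19, and dexamethasone replicate 2 lay inside the control range. With the authors' scaled values it was -0.34 (limma's adjusted p = 0.973). The second NANOS1 probe was above background on 0 arrays.

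LIN28A, which blocks maturation of let-7 microRNAs, read 8.10, 8.18 and 8.04 against 7.95, 7.99 and 8.09. Dexamethasone replicates 1 and 2 were above every control but replicate 3 was not, and the difference was 0.10 ± 0.08 (SE). CPEB1, which controls cytoplasmic polyadenylation, read 7.67, 7.75 and 7.96 against 7.73, 7.58 and 7.69. Its difference of 0.13 ± 0.10 (SE), the highest of the 19, rested mostly on dexamethasone replicate 3, and the other treated values fell in or next to the control range.

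MSI1 and MSI2, the Musashi proteins, repress or release translation in stem and germ cells. MSI1 read 6.61, 6.77 and 6.63 against 6.54, 6.61 and 6.65, with a difference of 0.07 ± 0.09 (SE). MSI2 read 9.44, 9.20 and 9.17 against 9.29, 9.30 and 9.10, with a difference of 0.04 ± 0.10 (SE). Each gene had its highest value in a treated stallion, a different one for each, and overlapping groups.

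ELAVL2, a Hu protein that binds AU-rich messages in neurons and germ cells, was the 1 gene whose 2 tested probes parted. The brighter probe read 8.61, 8.84 and 8.54 against 8.63, 8.66 and 8.89, with overlapping groups and a difference of -0.07 ± 0.11 (SE). The dim probe read 6.12 and 6.07 in dexamethasone replicates 1 and 3, where it was not above background, and 6.52, 6.44 and 6.51 in the controls. The spot of dexamethasone replicate 2 was flagged and counted as missing. The control values, above background in 3 of 3, had signal strengths of 1.01 to 1.16, barely over the limit. The probe entered the test only through them, which favoured lower values in the treated stallions.

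The treated values were raised, where lower, to the lowest signal above background on the same array. The dim ELAVL2 probe was then 1.15-fold higher in controls, a ratio of group means with no test. It is not a lower bound, because a spot not above background can read higher, as SALL4 did at 6.46 in dexamethasone replicate 3. The fitted difference of the dim ELAVL2 probe was -0.39 ± 0.09 (SE, limma's adjusted p = 0.999), and -1.26 with the authors' scaled values. Since the filter favoured this direction, these are values only. Nerve also expresses Hu proteins, and of 8 nerve markers 3 were tested, with mean levels of 7.40 to 7.65 in treated and 7.39 to 7.60 in control stallions, while TUBB3, NEFL and S100B were above background on 0 arrays. Their part in the ELAVL2 values was not tested.

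MAGEA4, a cancer-testis antigen found in human spermatogonia, was the 1 gene of the 19 whose groups did not overlap, a pattern shown by 9.33% of all tested genes. It read 6.53, 6.50 and 6.51 in dexamethasone stallions and 6.65, 6.67 and 6.64 in controls. The difference of -0.14 ± 0.08 (SE) was small, but so was the spread, with a pooled SD of 0.015 that 0.0813% of tested probes matched or fell below. The exact two-sided permutation p was 0.1, the smallest that 3 against 3 can give. Every gene whose 3 against 3 values do not overlap has this p, so it only restates that pattern. Limma's adjusted p was 0.999. Signal strengths were 1.06 to 1.17 and 1.20 to 1.36, close to background, and the difference was -0.33 with the authors' scaled values. Within the 2 runs of slide numbers the difference was -0.14 and -0.13, where the lack of overlap already fixed the sign. The symbol MAGEA4 was not found in the horse gene table, so which horse transcript the probe reads is unknown here.

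Slide numbers fell into 2 runs, 1 of 4 arrays with 2 stallions of each group and 1 of 2 arrays with 1 of each. Within the first, 12 of the 19 members lay higher after dexamethasone, with a median of 0.04, against 46.6% and -0.01 over all tested probes. Within the second 6 did, with a median of -0.04, against 50.5% and 0.00. The genes that differed most between the runs were BOLL, at 0.26 and -0.29, ID4, at 0.12 and -0.47, and ELAVL2, at 0.08 and -0.35. The second run is a single pair that holds dexamethasone replicate 3, so run and stallion cannot be told apart there.

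**Figure D4:**
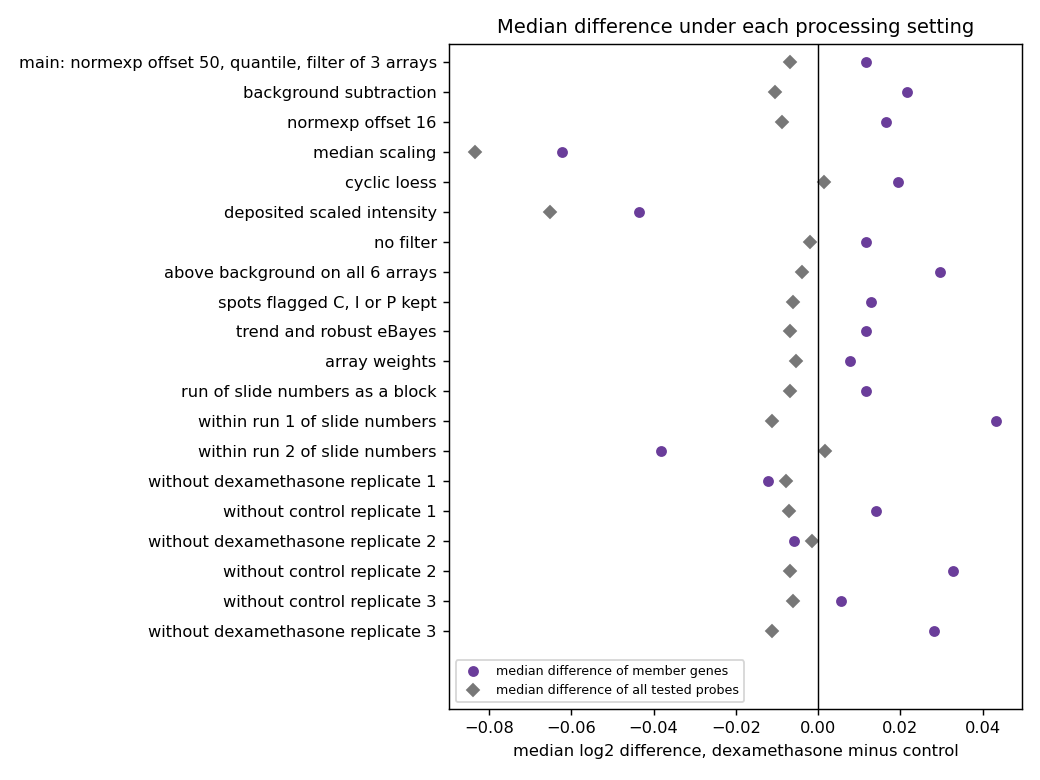
Median log2 difference between dexamethasone and control stallions under each processing setting, for the tested member genes (circles) and for all tested probes (diamonds). The members' median is 0.01 in the main setting and between -0.06 and 0.04 over all settings shown, and it moves below 0 together with that of all probes under median scaling (-0.06 and -0.08) and with the authors' scaled values (-0.04 and -0.07).

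The other genes of these pathways were read from 3 lists. Of 30 niche and stem cell partners 16 were tested, 10 higher and 6 lower, with a median difference of 0.03. CXCR4, the receptor of the niche chemokine CXCL12, differed by 0.18 ± 0.09 (SE), with the probe above background in 2 of 3 treated stallions and 1 of 3 controls. FOXO1 and ZBTB16, both needed in mouse stem spermatogonia, differed by -0.16 ± 0.08 and 0.20 ± 0.11 (SE), with groups that did not overlap. That pattern was shown by 3 of the 16 and by 9.33% of all tested genes. KITLG, the ligand of KIT, was above background on 0 arrays. Over all probes limma's adjusted p of CXCR4, FOXO1 and ZBTB16 was 0.999, so none of them passed.

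Of 34 RNA-binding partners and relatives 21 were tested, 11 higher and 10 lower, with a median of 0.01. CELF2, a splicing and stability factor, had a mean of 8.21 ± 0.01 in treated and 8.45 ± 0.14 in control stallions (SD, n = 3 each). The groups did not overlap, as in 1 of the 21 and in 9.33% of all tested genes, and the difference was -0.24 ± 0.09 (SE). FXR1, a relative of the fragile X protein that mouse spermatids need, differed by 0.16 ± 0.09, and CNOT2, a subunit of the deadenylase complex that NANOS proteins recruit, by 0.15 ± 0.10 (SE), both with overlapping groups. The germ cell helicase DDX4 was above background on 0 arrays. Of 24 genes of retinoic acid handling and meiotic entry 14 were tested, 6 higher and 8 lower, with a median of -0.04. The members with the smallest p were the synthesis enzyme ALDH1A2, at 0.12 ± 0.09, the degrading enzyme CYP26B1, at -0.13 ± 0.10, and the retinol carrier RBP4, at -0.19 ± 0.17 (SE), all with overlapping groups. Limma's adjusted p was 0.999 for each tested gene named from these lists.

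The arrays as a whole had between 22690 and 25537 of the gene probes above background, and a median spot of 72.6 to 79.4 over a median background of 47 to 50. Over the tested probes they correlated at 0.983 to 0.990, which is across probes and not across replicates. Member probes above background numbered 18 to 20 in the treated and 21 or 22 in the control stallions. The second ELAVL2 probe was above background in 3 controls and 0 treated stallions, and without this probe the ranges would meet. Of all gene probes 46.3%, 42.5% and 44.1% were above background in dexamethasone replicates 1 to 3. In the controls 47.8%, 46.1% and 44.6% were, ranges that overlap. Markers of the other cells of the tissue were tested for 10 Sertoli, 6 Leydig, 3 peritubular myoid, 4 endothelial and 3 macrophage genes, with median differences of -0.00, -0.04, -0.20, -0.06 and 0.06. The 4 spermatocyte and 7 spermatid genes had medians of -0.07 and 0.01. INSL3, of Leydig cells, was the marker with the largest difference, at -1.21 ± 0.23 (SE, limma's adjusted p = 0.999). No marker passed limma's adjusted test.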

How the data were processed

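Per the labels' protocols, total RNA was prepared with Tripure and labelled cRNA was read as Alexa-647 on 1 human CodeLink array per stallion. Neither the scanner software nor the meaning of its flags is stated there. The files deposited by the authors give spot mean and background median intensity on a linear scale, a signal strength score, and a scaled intensity, which from the values is spot mean minus background over a constant for each array and is repeated in the table of the whole series.

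Intensities were corrected with normexp (offset 50), quantile normalised and expressed as log2 (R 4.3.3, limma 3.58.1). Spots flagged C, I or P were missing, and probe names printed more than once were left out as controls. Probes above background on at least 3 of 6 arrays, with 2 values per group, were tested with lmFit and eBayes, two-sided, and p was adjusted by the Benjamini-Hochberg method across every tested probe. Where a gene had several tested probes, the brightest stood for it. Nothing in the labels pairs stallions, and replicate numbers are only names. The number of arrays limits the precision.

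The members, gene lists and tests were chosen with earlier results of these data known. All tested members are named with their values, and up to 3 genes with the smallest p from each partner list. Alternatives were other background corrections, normalizations, filters, flags, eBayes settings, array weights, slide-number run as a block or taken separately, the mean of a gene's probes, and leaving out each array. Plots were made in Python 3.11.15 (matplotlib 3.10.9).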

Additional observations from a re-analysis of the deposited data

How the results depend on the processing

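Member genes past limma's adjusted p numbered 0 in every setting. At an unadjusted p under 0.05 they numbered 1 in the settings named next and 0 in the others. The gene was MAGEA4 with background subtraction, an offset of 16 and the authors' scaled values (limma's unadjusted p = 0.014, 0.047 and 0.020). In the same settings 818, 817 and 838 of all 24590 tested probes were under 0.05. The p-values of MAGEA4 are therefore not taken as support for a change. Without dexamethasone replicate 3 the member gene was BOLL, where 1155 of the 24590 probes were under 0.05. The smallest adjusted p of any member probe in any setting was 0.424. Over all probes 1 passed, and 0 with background subtraction, with robust, trended eBayes and when all 6 arrays had to be above background. Without each array in turn it was 0 to 3, at 0 without control replicate 1 or 3, 2 without dexamethasone replicate 1 and 3 without control replicate 2. In these fits a group of 1 usable value is assumed to vary like the others. Member genes whose groups did not overlap numbered 1, or 2 under median scaling, where 14.6% of all tested probes separated. With 1 array left out, so that fewer values must separate, they numbered 2 to 4, against 17.7% to 21.3% of all tested probes. Within the first run of slides there were 6, against 35.9%. Member differences changed sign in 49 of 415 recomputed values, none of them called. MAGEA4, NANOS1, DMRTB1 and CPEB1 kept their sign in the settings that gave a value. The mean of both ELAVL2 probes gave 0.23, where the missing dim spot of dexamethasone replicate 2 leaves the bright probe alone. No paired analysis was possible because no label pairs the stallions. Signal near background limits SALL4, NANOS1, MSI1, MAGEA4 and the second ELAVL2 probe most.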
